A study of Mus musculus with 10 samples.

Results

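Open chromatin in maturing mouse erythroid cells was compared between 2 h and 6 h of GATA1 activation, using the 4 ATAC-seq peak lists of those time points out of 10 in the series. A region was called gained when both 6 h lists held it and neither 2 h list did, and lost in the reverse case. Of 21057 regions held by at least 1 of the 4 lists, 502 were gained and 506 were lost, while 8410 were in all 4 lists. The libraries came from G1E-ER4 cells, an erythroid line derived from Gata1-null embryonic stem cells that carries GATA1 fused to an estrogen receptor domain. All groups, the untreated one included, lack the endogenous GATA1 protein and carry the same fusion protein. The 2 h, 6 h, 12 h and 24 h groups were kept in estradiol at 1e-07 M for the named time and the 0 h group received none, with 2 libraries per group and about 50000 cells per library. The cells are a subclone of 1 line, so the spread between libraries covers neither animals nor clones.

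GATA1 is the transcription factor that drives red cell maturation, and it binds the hexamers AGATAA and TGATAA, often beside an E-box bound by TAL1. Before activation these cells hold much GATA2, a related factor of progenitors, and GATA1 takes over many of its sites in what is called the GATA switch. Elements that served progenitor genes such as Gata2, Kit and Erg are known to be silenced in that switch, whereas globin, haem and membrane genes are switched on. The comparison between 2 h and 6 h asks which elements opened or closed after the fusion protein had entered the nucleus but long before the cells had matured.

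Each deposited list gives summits of 1 bp with a score, −log10 of the q-value in its own library, and no read counts. The 10 lists held between 10697 and 19855 peaks on chromosomes 1 to 19 and X, and the depth of each library is unknown. At 6 h, replicate 1 held 14210 peaks and replicate 2 held 19855, while the 2 h lists held 16113 and 14272. Each list was therefore shortened to its 14210 highest-scoring peaks, and summits extended by 250 bp on each side were merged into regions. The last peak kept scored 3.38 and 2.01 at 2 h and 1.35 and 4.95 at 6 h, so a peak of 6 h replicate 2 needed a much smaller q-value to be listed. Peaks marked between 4 and 7 of 10 erythroid progenitor promoters in each library, at most 3 of 17 mast cell promoters, at most 1 of 9 myeloid and of 8 lymphoid promoters, and 0 of 6 liver and neuron promoters. Peaks lay at 2 or 3 of 13 megakaryocyte promoters, those of Gp1ba and Nbeal2 in every library.

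Sequences are shown for 11 distal members with GATA hexamers, chosen because they lie at genes of the GATA switch or of red cell maturation, or had the clearest history over the 10 libraries. Each is the central 200 bp of the region on the plus strand of mm10 (GRCm38), 5′ to 3′, and capitals mark AGATAA or TGATAA read on either strand, so that TTATCT and TTATCA are minus-strand matches. The first 6 were gained and the last 5 were lost.
Pim1, chr17:29447368-29447567: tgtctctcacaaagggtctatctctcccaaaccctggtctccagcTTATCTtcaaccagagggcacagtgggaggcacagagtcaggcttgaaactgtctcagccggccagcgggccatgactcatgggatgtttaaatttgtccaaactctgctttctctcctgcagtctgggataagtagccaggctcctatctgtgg
Morn1, chr4:155117620-155117819: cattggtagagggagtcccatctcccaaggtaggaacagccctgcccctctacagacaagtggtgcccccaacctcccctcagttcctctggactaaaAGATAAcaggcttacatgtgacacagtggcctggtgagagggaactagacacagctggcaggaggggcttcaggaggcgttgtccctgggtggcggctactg
Spns2, chr11:72482033-72482232: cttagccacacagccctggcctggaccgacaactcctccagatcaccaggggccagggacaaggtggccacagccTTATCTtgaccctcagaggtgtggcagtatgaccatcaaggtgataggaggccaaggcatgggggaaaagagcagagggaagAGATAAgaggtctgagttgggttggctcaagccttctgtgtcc
Btg2, chr1:134073184-134073383: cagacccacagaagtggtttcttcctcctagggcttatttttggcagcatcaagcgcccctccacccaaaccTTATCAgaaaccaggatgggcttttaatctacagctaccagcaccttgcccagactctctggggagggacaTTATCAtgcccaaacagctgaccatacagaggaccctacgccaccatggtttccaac
Dmtn, chr14:70624112-70624311: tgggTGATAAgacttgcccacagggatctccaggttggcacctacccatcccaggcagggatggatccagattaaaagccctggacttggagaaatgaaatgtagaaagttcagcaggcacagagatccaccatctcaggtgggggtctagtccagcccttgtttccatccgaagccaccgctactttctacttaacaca
Tfrc, chr16:32638564-32638763: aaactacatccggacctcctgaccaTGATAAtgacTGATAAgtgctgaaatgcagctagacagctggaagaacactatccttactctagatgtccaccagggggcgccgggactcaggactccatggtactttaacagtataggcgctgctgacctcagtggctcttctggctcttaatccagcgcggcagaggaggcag
Gata2, chr6:88191731-88191930: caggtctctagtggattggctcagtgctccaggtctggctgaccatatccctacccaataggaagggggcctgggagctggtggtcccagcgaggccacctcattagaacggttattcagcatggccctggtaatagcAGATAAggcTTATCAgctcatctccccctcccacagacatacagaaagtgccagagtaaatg
Erg, chr16:95488030-95488229: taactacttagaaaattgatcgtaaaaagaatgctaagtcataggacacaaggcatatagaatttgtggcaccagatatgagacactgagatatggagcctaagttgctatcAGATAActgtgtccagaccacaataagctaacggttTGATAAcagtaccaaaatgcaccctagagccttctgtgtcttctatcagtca
Tespa1, chr10:130336460-130336659: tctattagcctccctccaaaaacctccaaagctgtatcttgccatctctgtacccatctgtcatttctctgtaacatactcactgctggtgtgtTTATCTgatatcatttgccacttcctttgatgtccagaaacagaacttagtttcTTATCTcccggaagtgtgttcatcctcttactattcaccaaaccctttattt
Fgf3, chr7:144788757-144788956: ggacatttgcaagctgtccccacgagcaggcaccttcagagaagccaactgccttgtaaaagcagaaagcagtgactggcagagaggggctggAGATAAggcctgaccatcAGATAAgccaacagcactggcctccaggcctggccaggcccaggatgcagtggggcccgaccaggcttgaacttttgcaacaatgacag
Hbb-y, chr7:103877175-103877374: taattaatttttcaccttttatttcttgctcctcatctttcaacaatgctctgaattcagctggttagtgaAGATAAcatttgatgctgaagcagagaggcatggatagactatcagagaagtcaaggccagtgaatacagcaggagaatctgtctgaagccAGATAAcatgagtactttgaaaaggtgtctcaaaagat
A match in these letters is a description of the sequence and does not show that a factor was bound there.

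Gained and lost regions made up 2.38% and 2.40% of the regions of the 4 lists, in nearly equal numbers. Regions in a single list numbered 6448, those in exactly 2 lists 3288 and those in 3 lists 2911. Of the 3288 in 2 lists, 2280 were in 1 list of each time point, with between 380 and 747 for each such combination. Libraries of the same time point shared 10288 regions at 2 h and 10451 at 6 h, and libraries of different time points shared between 10079 and 10954. The replicates of a time point were thus no closer to each other by shared regions than to libraries of the other time point.

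**Figure D1:**
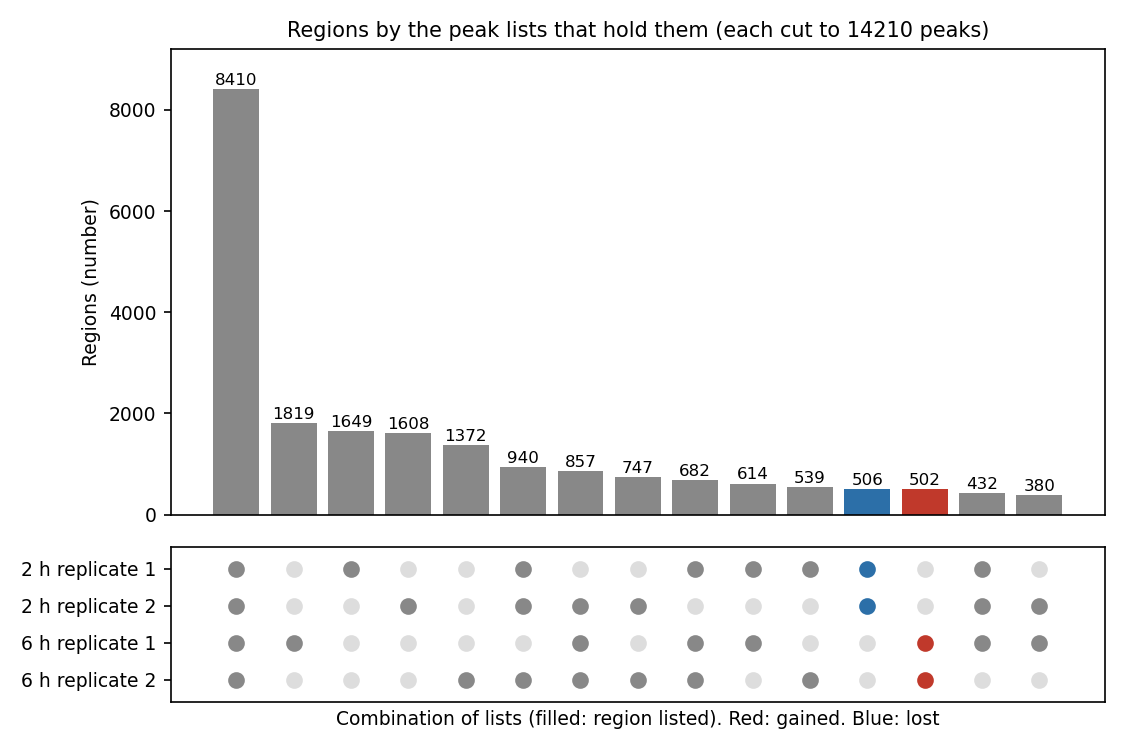
Number of regions (upper axis) held by each combination of the 4 peak lists (filled circles below), with gained regions in red and lost regions in blue. The 8410 regions in all 4 lists form the tallest bar, and the 502 gained and 506 lost regions are as numerous as regions shared by 1 list of each time point, which range from 380 to 747.

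The members were low in their lists. Gained regions had median ranks of 10167 and 11149 of 14210 in the 6 h lists and lost regions had 10627 and 10822 in the 2 h lists, whereas regions in all 4 lists lay at medians between 4430 and 4576. Only 10 and 1 gained regions reached the top 25% of the 6 h lists, and 10 and 2 lost regions that of the 2 h lists. The highest score of a gained region was 18.8 and that of a lost region 13.3. In the uncut lists, 119 of 502 gained regions (23.7%) had a 2 h peak below the 14210 kept, and 255 of 506 lost regions (50.4%) had a peak of 6 h replicate 2 below them. That left 383 gained and 251 lost regions with no peak of the other time point in the uncut lists. With uncut lists throughout, the rule gave 769 gained and 322 lost regions, so the near balance of the counts rests on the equal list sizes. The 2 longest of the 4 lists set these values, and the part of library depth in these counts was not tested.

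Most members lay away from promoters. Among gained regions 164 (32.7%) were within 1 kb of the transcription start of a protein-coding gene, 169 in introns, 16 in exons and 153 between genes. Among lost regions 95 (18.8%) were within 1 kb of a start, 218 in introns, 11 in exons and 182 between genes. By comparison, 71.0% of the regions in all 4 lists and 17.4% of those in 1 list were at promoters, so by promoter share both sets lay nearer to regions in 1 list. Distal regions, those further than 1 kb from a start, numbered 338 among gained and 411 among lost, and 55 (16.3%) and 108 (26.3%) of them were over 50 kb away. Mean GC content of the central 200 bp was 52.1% in distal gained and 47.7% in distal lost regions, against 49.6% over all distal regions. Members were spread over the 20 chromosomes, from 1.45% of regions gained on chromosome 15 to 4.40% on chromosome 19. Few lay beside a region of the other time point, which was within 1 kb of 68 gained and 64 lost regions.

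**Figure D2:**
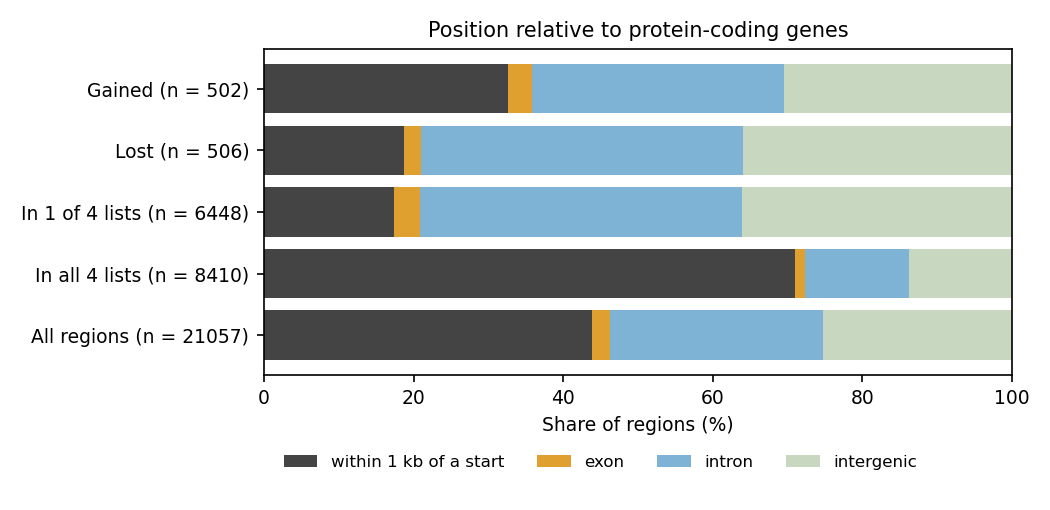
Share of regions (%) by position relative to protein-coding genes, as stacked bars for gained, lost and other regions. The promoter part is 32.7% of gained and 18.8% of lost regions, between the 17.4% of regions in 1 list and the 71.0% of regions in all 4.

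GATA hexamers were more frequent in lost than in gained distal regions. In the central 200 bp, AGATAA or TGATAA on either strand was present in 196 of 411 distal lost regions (47.7%) and in 116 of 338 distal gained regions (34.3%), against 41.4% over all 11821 distal regions. Regions in all 4 lists had 50.5% and those in 1 list 35.1%, so gained regions stood at the level of regions in a single list and lost regions near that of the common ones. With 2 or more hexamers there were 75 lost and 31 gained regions. A composite of an E-box end and a GATA hexamer, the arrangement used by TAL1 and GATA1 together and overlapping the GATA search by design, was found in 10.7% of lost, 5.92% of gained, 14.9% of common and 8.81% of all distal regions. Among the members without a peak of the other time below the cut, GATA shares were 45.9% of 207 lost and 32.5% of 265 gained distal regions. Lost regions thus also held GATA more often than gained ones in this subset.

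Other motifs separated the distal members from each other or from common regions. The CTCF motif, bound by the factor that marks chromatin loop ends, was matched in 43 gained (12.7%) and 39 lost (9.49%) distal regions, against 2.95% of those in all 4 lists, 9.24% of those in 1 list and 7.55% of all. The KLF motif CCNCNCCC, bound by KLF1 and its relatives, occurred in 32.5% of gained and 19.2% of lost distal regions, against 24.9% of all. Distal regions in all 4 lists had 33.4% and those in 1 list 20.8%, so gained regions stood near the common ones. The KLF motif is rich in C and G, as gained regions were, and the part of base composition in the KLF shares was not tested. The AP-1 motif, TGACTCA or TGAGTCA, was in 9.73% of lost and 7.10% of gained distal regions and in 7.03% of all. ETS (CCGGAA), RUNX (TGTGGT) and NF-Y (CCAAT) motifs differed by at most 1.73 percentage points between gained and lost. The palindromic estrogen response element was in 0 of 502 gained and 0 of 506 lost regions, and 4 of all 11821 distal regions held it. At promoters GATA was found in 16 of 95 lost (16.8%) and 7 of 164 gained regions (4.27%), against 6.38% of all promoter regions. Promoter regions in 1 list had 12.4% and those in all 4 lists 4.93%, so gained promoters stood near the common ones.

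**Figure D3:**
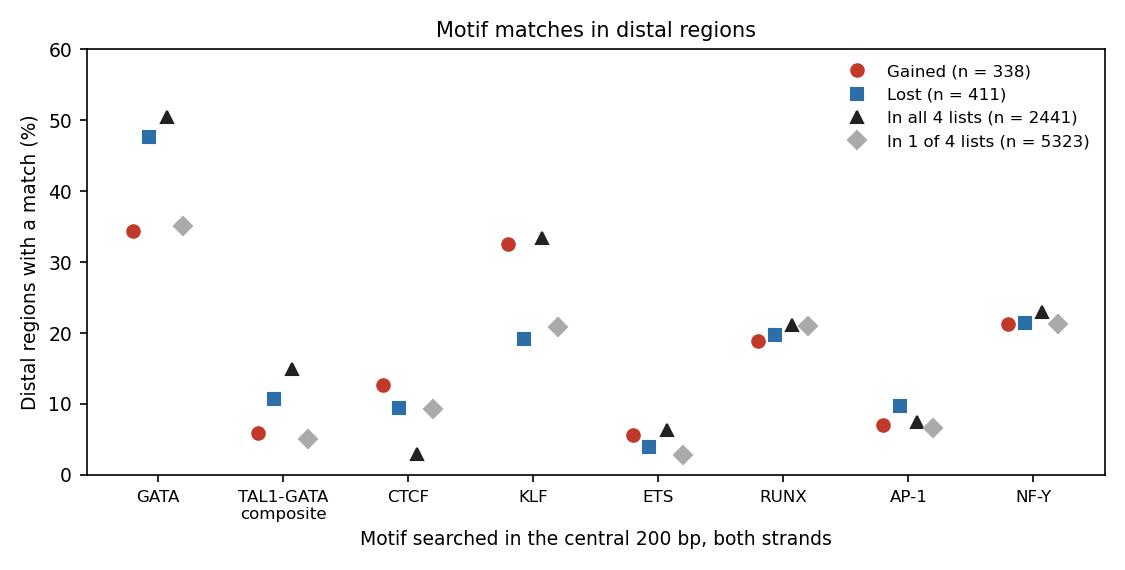
Percentage of distal regions with a motif match in their central 200 bp (vertical axis) for 8 motifs, by set of regions (symbols). GATA matches reach 47.7% of lost and 34.3% of gained regions, and CTCF matches reach 12.7% and 9.49% against 2.95% of regions in all 4 lists.

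The 6 libraries of 0, 12 and 24 h were not used to choose the members and show how they stood earlier and later. At 0 h, 41.6% and 26.7% of gained regions and 44.3% and 30.4% of lost regions were listed in replicates 1 and 2. At 12 h, 48.8% and 44.8% of gained regions were listed against 39.7% and 30.4% of lost regions. At 24 h the shares were 48.6% and 27.5% for gained and 34.0% and 17.0% for lost regions. The lists of 0 h replicate 2 and 24 h replicate 2 were short, at 11697 and 10697 peaks. They held 51.3% and 47.1% of all regions, against 57.2% to 60.1% in the other libraries of 0, 12 and 24 h, so their low shares cannot be told apart from list length. Lost regions were listed slightly more often in each 0 h library, and gained regions more often in each of the 4 later libraries. The gained share minus the lost share was −3.19 ± 0.782 percentage points at 0 h (SD, n = 2) and 12.1 ± 2.78 at 12 and 24 h (SD, n = 4), and the groups did not overlap. The difference of 15.3 points gave a two-sided exact permutation p of 0.133, the smallest that 4 against 2 libraries allow. Counted over members with no peak below the cut, it was 14.2 points. In that subset the gained share was slightly the higher in each 0 h library too, by a mean of 1.06 points. Leaving out 2 h replicate 2, so that lists of 1 library at 2 h and 2 at 6 h chose the members, reduced the difference of 15.3 points to 4.28. Without 6 h replicate 1 it was 7.49 points.

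The later difference was larger where the region held a GATA hexamer. Distal lost regions with GATA were listed at 45.9% and 36.7% at 0 h, then 35.2% and 28.1% at 12 h, and by 24 h 18.4% and 10.2%. Distal gained regions with GATA were listed at 41.4% and 27.6% at 0 h, then 50.0% and 45.7% at 12 h, and by 24 h 50.9% and 26.7%. For these the gained share minus the lost share moved by 27.2 points from 0 h to the later libraries. Distal regions without GATA moved by 9.13 points, and at 24 h their gained and lost shares differed by −0.067 ± 1.41 points (SD, n = 2). Promoter members moved by 6.22 points with overlapping groups (exact permutation p = 0.533). The split by GATA was added after the values had been seen, and the difference between the strata was not tested. Without 2 h replicate 2 the values with and without GATA were 4.72 and 4.0 points, so the contrast between them rests on that library. Without 6 h replicate 1 they were 16.6 and 4.52 points. All distal regions with GATA in the 4 lists were listed less at 24 h too, at 38.8% and 27.6% against 51.0% and 42.6% at 0 h.

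**Figure D4:**
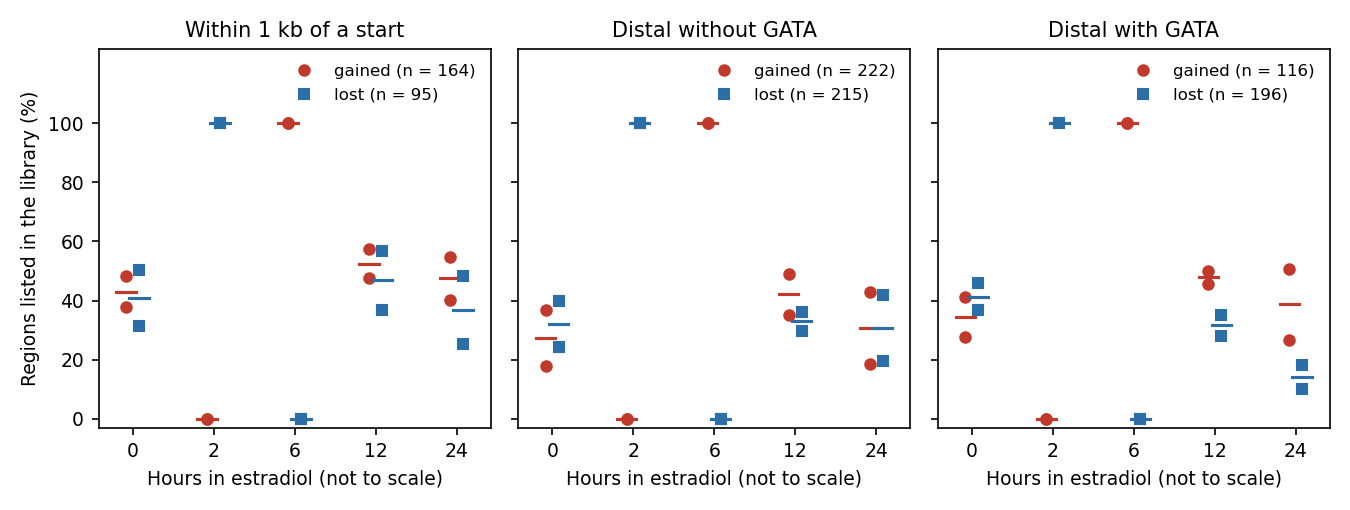
Percentage of gained (red circles) and lost (blue squares) regions listed in each library (vertical axis) by time in estradiol, in 3 classes of region. Points are libraries and bars are means of 2. The values of 0 and 100 at 2 h and 6 h follow from the rule, and at 24 h the lost distal regions with GATA lie at 18.4% and 10.2%.

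Few members had a simple history. Of 502 gained regions, 234 were in neither 0 h list, 135 were in at least 3 of the 4 later lists and 66 were in no list but those of 6 h. Only 10 were in neither 0 h list and in all 4 later lists, of which 9 were distal and 4 held GATA. Of 506 lost regions, 103 were in both 0 h lists, 168 were in no later list and 92 were in no list but those of 2 h. Altogether 21 were in both 0 h lists and in none of the 4 later lists, and all 21 were distal with GATA in 17. By comparison, GATA was in 47.7% of all distal lost regions. Distal regions with GATA were in general listed less at 24 h than at 0 h, and the part of that in the 17 of 21 was not tested. Of the sets of 10 and 21, 3 of 10 and 10 of 21 had a peak of the other time point below the cut.

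Among the 10 gained and kept, the best ranked lay 43.3 kb upstream of Pim1, which encodes a survival kinase induced by cytokine signalling. It scored 5.55 and 12.3 at 6 h, then 3.87 and 8.21 at 12 h, with 6.07 and 11 in the 24 h lists, and 2 h replicate 1 had a peak of 1.93 below the cut. Its listing at 6 h and in all later lists, and in no earlier one, follows from the choice of these 10 regions. A region 35.2 kb from the start of Klf13, a KLF family factor, scored 7.35 and 8.26 at 6 h and reached 11.6 and 14.8 at 12 h. It lay at 6.00 and 5.78 at 24 h, and no 2 h peak was found there in the uncut lists. Introns of Morn1 and Ninl held gained regions with GATA, at 7.04 and 5.34 and at 5.08 and 6.72 in the 6 h lists. A region in an intron of Pde4a, a cyclic AMP phosphodiesterase gene, carried a CTCF match and scored 5.16 and 7.81 at 6 h, then 7.01 and 7.15 at 24 h. The sixth region lay in Tmcc2, with 4.92 and 9.87 at 6 h and a peak of 3.24 at 2 h below the cut.

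Of the 21 regions lost and not listed again, the best ranked lay 49.2 kb upstream of Fgf3, a growth factor gene. Its scores were 8.43 and 4.67 at 0 h and 5.96 and 9.88 at 2 h, and 6 h replicate 2 had a peak of 4.90 there, just under the 4.95 needed. That region therefore counts as lost only through the cut in 1 library. The region in Shprh, a DNA repair gene, held 4 GATA hexamers and scored 5.76 and 12.4 at 0 h and 6.26 and 7.11 at 2 h, with no 6 h peak in the uncut lists. A region 24.1 kb upstream of Hbb-y, the embryonic beta-like globin gene, on the side on which the locus control region lies, scored 3.39 and 4.75 at 0 h and 6.77 and 4.72 at 2 h. It is the region of the beta-globin cluster shown above by its sequence, its nearest start belongs to the olfactory receptor gene Olfr66, and the uncut 6 h lists held no peak there. The regions near Gfpt2, Nova1 and Gm813 had 6 h replicate 2 peaks of 3.13, 4.62 and 3.24 below the cut.

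**Figure D5:**
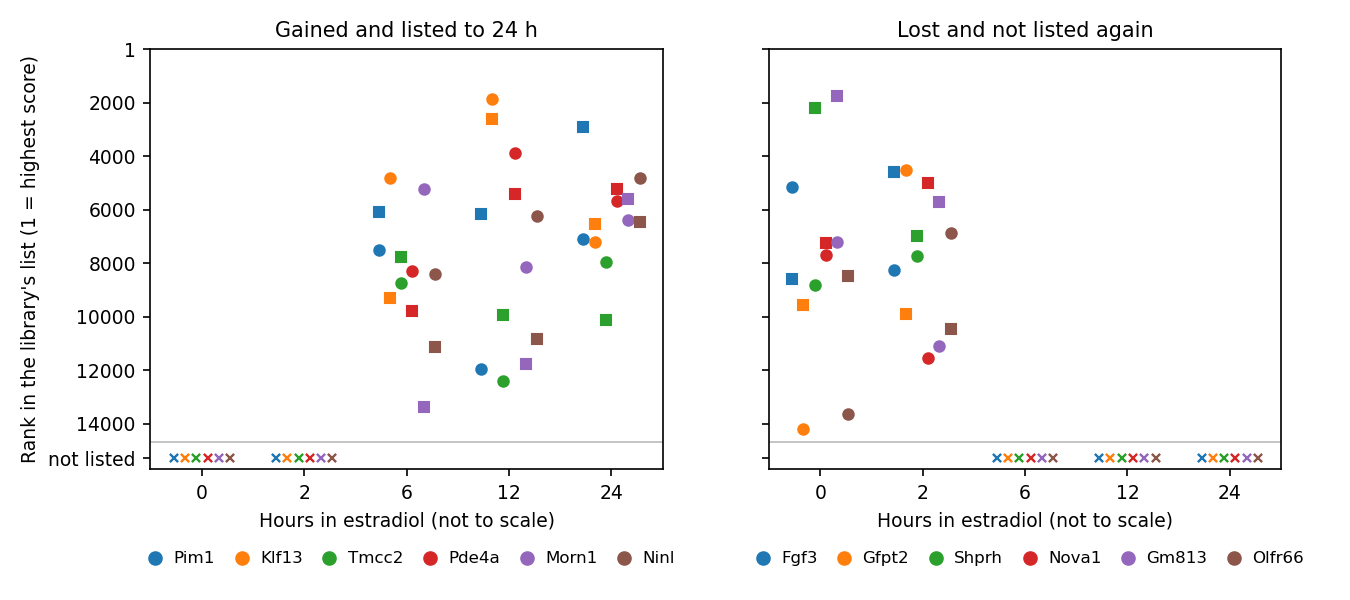
Rank in each library's list (vertical axis, 1 at the top) of the 6 best-ranked gained and kept regions (left) and the 6 best-ranked lost and not listed again (right), by time in estradiol. Circles are replicate 1, squares replicate 2 and crosses libraries that did not list the region, whose pattern over time follows from the choice of these regions. Olfr66 names the region upstream of Hbb-y, and the ranks of 1 region differ between replicates by up to 8169 places at 6 h, as for Morn1.

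The best-ranked gained regions were all promoters of genes used in most cells. That of Mrpl33, a mitochondrial ribosomal protein gene, scored 9.67 and 15.2 at 6 h but also 7.30 and 6.33 at 0 h and between 4.70 and 8.94 later, so it was missing at 2 h alone. The promoter of Tnks2, a tankyrase gene, scored 8.65 and 13.5 at 6 h, was in neither 0 h list and had a 2 h peak of 2.95 below the cut. The promoter of Zfp207, a spindle assembly factor gene, scored 6.29 and 16.2 at 6 h, and that of Snrpb2, a spliceosome subunit gene, 10.1 and 9.60. Those of Eif2ak2, the interferon-induced kinase PKR, and Thumpd2 scored 8.44 and 13.4 and 8.02 and 11.9, the former with a 2 h peak of 2.99 below the cut. Promoters of Thumpd2 and Zfp207 were also in both 0 h lists, and those of Eif2ak2 and Snrpb2 in 0 h replicate 2, at 4.84 and 5.80. The central 200 bp of these 6 promoters held no GATA hexamer.

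The best-ranked lost regions were more varied. An intergenic region 48.1 kb from Resf1 scored 8.32 and 13.3 at 2 h, and was also listed at 4.0 in 0 h replicate 2 and 4.63 in 12 h replicate 2, with a peak of 3.32 in 6 h replicate 2 below the cut. The promoter of Crlf2, a cytokine receptor subunit gene, scored 11.6 and 12.1 at 0 h, then 9.12 and 10.0 at 2 h, with 12.6 and 8.98 in the 24 h lists, while no 6 h or 12 h list held it. The promoter of Aurkb, a mitotic kinase gene, scored 8.27 and 7.96 at 2 h and between 6.88 and 9.44 in 3 of 4 later libraries. Muc1, C3ar1 and Gpr146 gave the remaining lost promoters, at 11.4 and 8.90, 10.2 and 6.56, and 7.88 and 7.46 in the 2 h lists. Regions near Kif20b, Slitrk5 and Ppp6r1 completed the 6, the last with 2 GATA hexamers and 12.5 and 4.40 at 0 h. Of the lost regions named here, those of Crlf2, C3ar1 and Ppp6r1 had no 6 h peak in the uncut lists, and the other 6 had peaks of 2.45 to 4.44 in 6 h replicate 2 below the cut.

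Regions were next read at named genes, counting a member inside a gene body or within 50 kb of it. Of 15423 protein-coding genes with any region in that span, 1436 (9.31%) had a gained region and 1162 (7.53%) a lost region. Neighbouring genes share regions, so the genes of a list are not independent. Of the genes whose promoters the study had chosen for capture of their contacts, 22 activated and 19 repressed genes were read here, not all of those captured, and that choice makes them no independent evidence of direction. Among the activated, 6 genes (27.3%) had a gained and 4 (18.2%) a lost region. Among the repressed, 2 (10.5%) had a gained and 7 (36.8%) a lost region.

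At the repressed genes the region nearest to a start with GATA was that of Gata2, 2.06 kb upstream, which held 2 hexamers in opposite directions 3 bases apart. It scored 5.66 and 4.68 at 2 h and 5.38 in 0 h replicate 1, and no 6 h, 12 h or 24 h list held it. The uncut 6 h lists had no peak there either. In an intron of Tespa1 a region with 2 hexamers scored 4.64 and 5.42 at 2 h and 5.47 in 0 h replicate 2 and was in no later list. In Kit, the stem cell factor receptor gene, a region 58.6 kb downstream of the start scored 4.16 and 4.15 at 2 h and was listed again at 12 h, at 2.96 and 3.56, with a 6 h replicate 2 peak of 4.44 below the cut. The promoter-near region of Gpr65 and the intron region of Rgs13, a mast cell gene, were in the 2 h lists alone. The Susd1 region had a 6 h replicate 2 peak of 2.89 below the cut, and the Fgf3 region is described above. The gained regions of this group lay in Rgs1, at 3.6 and 7.79 with a 2 h peak of 2.95 below the cut, and 22.2 kb upstream of Sept9, at 3.24 and 4.99 in the 6 h lists. Both were also listed in 0 h replicate 1, at 8.48 and 3.66.

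At the activated genes, Spns2, a sphingosine-1-phosphate exporter gene, had a gained intron region with 2 hexamers that scored 4.74 and 5.24 at 6 h and was in all 4 later lists, at 3.10 to 5.47. It also had a lost region 60.3 kb downstream of its start, at 7.15 and 5.70 at 2 h, which was at 2.73 in 6 h replicate 2 below the cut and in 2 of 4 later lists. The region 5.84 kb downstream of the start of Btg2, an antiproliferative gene, scored 5.01 and 9.0 at 6 h and was in 3 later lists. It was also listed in 0 h replicate 1, at 4.67, and had a peak of 3.37 in 2 h replicate 1 below the cut. Dmtn, which encodes the membrane skeleton protein dematin, had a gained intron region at 7.83 and 5.19 at 6 h. It was absent at 0 and 12 h and listed at 3.38 and 4.54 at 24 h. Mafk and Tmem184a shared 1 gained region, at 4.14 and 5.76, which was also listed in 0 h replicate 2 at 3.79. That of Slc38a5, at the Ftsj1 promoter, was missing at 2 h alone. Lost regions were near Dhrs11, Il9r and the beta-globin gene Hbb-bs, the last being the region upstream of Hbb-y.

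Of 25 haematopoietic transcription factor genes with a region nearby, 6 had a gained and 5 a lost region. Erg, an ETS factor of stem and progenitor cells, lost an intron region with 2 hexamers that scored 8.55 and 12.5 at 0 h and 6.48 and 4.89 at 2 h. No 12 h or 24 h list held it, and 6 h replicate 2 had a peak of 3.65 below the cut. Gata3 had a lost region 16.2 kb upstream, at 6.08 and 6.67, and the promoter of Etv6 was lost at 4.18 and 3.15 but present in 3 later lists, with a peak of 4.32 in 6 h replicate 2 below the cut. Klf1, the erythroid KLF factor, had a lost region 11.3 kb and a gained region 12.2 kb downstream of its start, both inside a neighbouring gene and without GATA. These regions were close neighbours, the lost one ending at base 84913537 and the gained one starting at base 84913855 of the chromosome. Whether they are a single site with a shifted summit was not tested. Gained regions at Tal1, Lmo2 and Klf3 scored 2.31 and 5.05, 2.64 and 6.46, and 6.34 and 5.05 at 6 h. The Klf3 region was in 3 of 4 later lists, whereas those of Tal1 and Lmo2 were in 2, and at Tal1 a 2 h peak of 2.92 lay below the cut. The regions of Klf3 and Lmo2 were also listed in 0 h replicate 1, at 7.12 and 3.39. The gained region near Nfe2 is the promoter of Hnrnpa1, at 5.51 and 18.8, which 0 h and later libraries also listed.

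Genes of the red cell itself were read beside the 9.31% of all genes with a gained and 7.53% with a lost region. Globin genes had 3 of 7 in each direction, each time from 1 shared region, and membrane genes 10.5% in each direction. All 3 alpha-like globin genes were counted for 1 gained region, the Nprl3 promoter 8.79 kb upstream of Hba-x. It scored 2.54 and 8.58 at 6 h and 3.34 in 0 h replicate 1, and was in no later list. Nprl3 is the gene whose introns hold the alpha-globin enhancers. Of 12 haem synthesis genes none had a gained and 2 a lost region, near Fech and Slc25a39, and the Fech region was in 3 of 4 later lists and at 3.89 in 6 h replicate 2 below the cut. Of 12 iron genes 2 had a gained and none a lost region. That of Tfrc, the transferrin receptor gene, lay 29.7 kb downstream of its start with 2 hexamers and a CTCF match and scored 3.69 and 7.89 at 6 h, then 7.07 and 3.72 at 24 h. The Fth1 region, at 2.77 and 6.72, also held a CTCF match and was in no other list. Of 19 membrane genes 2 had a gained region, Ank1 and Dmtn, and 2 a lost region, Tmod3 and Xk, whose 6 h replicate 2 peaks of 2.19 and 4.72 lay below the cut.

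More of the cytokine signalling and cell cycle genes had a gained than a lost region. That direction also held over all genes, at 9.31% and 7.53%. Of 13 cytokine receptor and signalling genes, 5 (38.5%) had a gained and 3 (23.1%) a lost region, 2 of them both. Jak2, the kinase of the erythropoietin receptor, had a gained region 48.3 kb upstream with 2 hexamers, at 6.14 and 6.38 in the 6 h lists and without a 2 h peak in the uncut ones. The best-ranked gained regions of this group were that of Pim1, described above, and the Rab5c promoter downstream of Stat5b, which held 2 hexamers and scored 8.21 and 6.05, with a 2 h peak of 3.18 below the cut. The other gained regions, named after their values were seen, were near Socs3, an inhibitor of that pathway, at 3.84 and 10.0, and at the Stat5b promoter, at 3.73 and 8.97. This promoter was also listed in 0 h replicate 1, at 6.89. Stat5a and Stat5b, neighbouring genes for the pathway's transcription factors, shared a lost intron region at 8.15 and 7.34 in the 2 h lists. In that region 6 h replicate 2 had a peak of 4.93, just under the 4.95 needed. Of 19 cell cycle and survival genes, 4 (21.1%) had a gained and none a lost region, namely Ccnd3, Cdk2, Mcl1 and Btg2. The Mcl1 region was also in both 0 h lists, at 5.24 and 3.61. A Cdk2 region was in 0 h replicate 1, at 7.55. Ccnd3, the cyclin of late erythroid divisions, had 2 gained intron regions at 3.38 and 8.94 and at 4.31 and 7.64, the latter with a 2 h peak of 2.75 below the cut. In late maturation and autophagy, Xpo7 and Atg7 of 10 genes had a gained region and Foxo3 a lost region that 3 of 4 later lists held, at 4.70 in 6 h replicate 2 below the cut. The Xpo7 region is the Dmtn intron region described above, 142 kb downstream of the Xpo7 start. That of Atg7 is its promoter, which 0 h replicate 2 also listed, at 10.9.

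Markers of other lineages were read beside the same 9.31% of all genes with a gained and 7.53% with a lost region, in lists of few genes. Mast cell genes had 1 gained and 1 lost among 13 with a region (7.69% each), at Rgs1 and Rgs13. Megakaryocyte genes had 2 and 2 among 11 (18.2% each, above the shares of all genes). Their gained regions were near Gp1ba and Selp and their lost regions near Itga2b and Plek. Itga2b, the integrin gene also used by early progenitors, had a region 17.1 kb upstream at 6.26 and 6.47 at 2 h and 3.34 in 12 h replicate 2. No member lay near the 6 myeloid, 7 lymphoid and 2 liver and neuron genes that had a region. Of 10 erythroid progenitor genes, 5 (50%) had a gained and 3 (30%) a lost region, all named above.

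In the 8410 regions that all 4 lists held, the change could be read from ranks. The rank of each region in its list was turned into a normal score, a value with mean 0 and SD 1 over the regions of a library, and 6 h was compared with 2 h by limma. At an adjusted p of 0.05 (Benjamini-Hochberg) no region was called, 0 of 8410 (0%), and at an unadjusted p of 0.05 there were 112 higher and 116 lower at 6 h. Of regions at promoters, 15.6% had both 6 h ranks above both 2 h ranks and 12.5% the reverse. For distal regions with GATA these shares were 8.35% and 21%, and for those without 11.9% and 16%, against 14.0% and 14.2% over all. With 2 against 2 libraries the smallest exact permutation p is 0.333, so such separation of ranks is frequent without any change between the times. Mean normal scores of the 1233 common distal regions with GATA were −0.21 and −0.34 at 2 h and −0.34 and −0.53 at 6 h, so that the groups overlapped slightly.

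As none passed, the largest rank differences with non-overlapping groups are given as values. A region 28.0 kb from the start of Il21 stood at ranks 11747 and 12212 at 2 h and 1033 and 2998 at 6 h, a difference of 2.41 ± 0.56 normal scores (SE). It lay at 5987 and 7205 at 0 h and between 4842 and 7860 later, so the 2 h libraries were the low ones. Regions near Nek2, Zbtb38 and Zfp36l1 and the promoter of Vps39 followed, at 2.17, 2.15, 2.14 and 2.17. In the other direction an intron region of Dpysl2 with GATA stood at ranks 2551 and 2634 at 2 h and 10374 and 13856 at 6 h, a difference of −2.43 ± 0.60 (SE). It lay at 1542 and 4133 at 0 h and at 6748 to 8339 in 3 of 4 later lists. Regions in Pparg, Atf7ip and Baz2b and one near Ets2 followed, at −2.23, −2.06, −2.05 and −2.16. The adjusted p of each was 1 in limma.

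The share of peaks near promoters was measured over whole libraries. Of the 14210 peaks per list, 53.9% and 54.2% lay within 1 kb of a start at 2 h and 54.7% and 55.9% at 6 h, a difference of 1.28 points with an exact permutation p of 0.333, the smallest possible for 2 against 2. In the uncut lists the shares were 51.1% and 54.0% at 2 h and 54.7% and 45.2% at 6 h, and the difference was −2.57 points. The direction thus turned when the lists were not shortened, and the longest list gave the lowest share.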

How the data were processed

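ATAC-seq libraries were made from about 50000 G1E-ER4 cells each and sequenced on an Illumina NextSeq. The authors trimmed adaptors, aligned reads to mm10, kept unique positions and called peaks per library with MACS2 without a fragment model. The study's methods name Bowtie2, whereas the submitters' processing notes give Bowtie 1.0.0 and Picard, and no shift for the Tn5 cut is stated. The deposited score is −log10 of the q-value (lowest score 1.30), not scaled between libraries, so only presence and rank within a list were used, and sequencing depth is unknown.

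The rule, the members and the gene lists were chosen with earlier results of these data known. Peaks off chromosomes 1 to 19 and X (5 to 9 per list) were left out, lists were cut to 14210 peaks, and windows of 501 bp were merged. The 0, 12 and 24 h lists were cut to at most 14210 peaks as well. Genes and starts were those of protein-coding transcripts in GENCODE M21 (basic), and sequence and motifs came from GRCm38.p6, in the central 200 bp. Ranks were tested with limma 3.58.1 on normal scores, shares over samples with the exact two-sided permutation test, and all motifs were read on both strands. Nothing in the labels says that replicates came from separate cultures, so p-values measure only the spread between these samples. Named regions were the 6 best-ranked gained and lost, the 6 best-ranked gained and kept and lost for good, the 5 best promoters of each set, members at the listed genes (all for captured and transcription factor genes, otherwise the 3 best of each direction) and the 5 largest rank differences of each direction. Both scripts were tested on simulated lists and ranks. Alternatives changed list length, score minimum, window, promoter distance, motif, scaling and single libraries. Python 3.11.15 with scipy 1.17.1 and pysam 0.24.0 was used.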

Additional observations from a re-analysis of the deposited data

How the results depend on the processing

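The members depended on single libraries, as choosing them with 1 library of a time point gave between 1190 and 2344 gained and between 950 and 2171 lost regions. Across those settings the distal share ran from 55.0% to 79.6% of gained and from 66% to 84.8% of lost regions, and the GATA share over all members, promoters included, from 24.2% to 28.4% of gained and from 34.0% to 39.1% of lost regions, against 24.5% and 41.9% with all 4 libraries. Full lists gave 769 gained and 322 lost regions and a distal gained share of 73.3%. Cutting all lists to the smallest of 10 gave 336 lost regions, distal shares of 52.0% gained and 74.7% lost, and GATA shares of 20.5% gained and 47.6% lost. A score of at least 3 gave a distal gained share of 62.6%. Windows of 100 bp gave distal shares of 59.7% gained and 70.6% lost and a GATA share of 36.7% lost, and windows of 500 bp a distal lost share of 85.4%. A 400 bp motif window raised these GATA shares over all members to 36.7% and 54.7%, and hexamers also ending in G gave 33.9% and 53.2%, so lost regions held more GATA than gained ones in these settings. Keeping tied scores from the other end of the genome, an alternative added after the data were seen, left all 1008 members in place. The later balance of gained over lost regions kept its direction in all alternatives, with exact permutation p between 0.133 and 0.533. It ran from 4.28 to 16.4 points when 1 library was left out. With changed lists or windows it ran from 9.26 to 15.0 points. In subsets of the members it was 27.2 points for distal regions with GATA, 9.13 for those without and 6.22 for promoters. The promoter share of peaks reversed with full lists, to −2.57 points. The limma count stayed at 0 in all 10 alternatives, including each left-out library, where the remaining single sample was assumed to vary like the other group. With a replicate block the count was 0 too, with 218 higher and 230 lower at an unadjusted p of 0.05 and a lowest adjusted p of 0.719. Same-numbered samples correlated at 0.243 in their deviations, over 2 pairs that share only a number by their labels. The causes of these shifts were not tested, and without read counts the depth that limits each list is not known.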
